A study of Mus musculus with 26 samples.

Results

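The livers described here are 8 of 26 from Eu-MYC mice, those in which B-cell transcripts were abundant. They were chosen by their reading of Cd79a, a signalling chain of the B-cell receptor that B-lineage cells carry and hepatocytes do not: a library was kept when Cd79a reached 8 CPM (counts scaled to a common library total). Eu-MYC mice carry a MYC transgene under the immunoglobulin heavy chain enhancer, which drives it in B-lineage cells, and they are used as a model of B-cell lymphoma. Every library of the series is from such a mouse, so the controls carry the transgene too. The 8 were 4 livers of mice kept under 12:12 lighting (12 h of light, 12 h of dark), from females 6 and 7 and males 3 and 5, and 4 livers of mice kept for 8 weeks under repeated jet lag (labelled CJL), from females 2, 5 and 6 and male 8. The other 18 comprised 10 livers under 12:12 lighting (6 female, 4 male) and 8 under jet lag (5 female, 3 male). The sources used here do not give the age of the mice, the schedule of the shifts or the clock time of sampling. The labels number the mice, but nothing says that a number marks a litter or a day.

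The question asked of these 8 livers was how lighting altered gene expression when the tissue also held many B-lineage cells. In mammalian cells BMAL1 (encoded by Arntl) pairs with CLOCK or NPAS2, binds E-box sequences and switches on the Per and Cry genes, whose proteins then repress that pair. A linked loop of the nuclear receptors REV-ERB (Nr1d1, Nr1d2) and Rora sets the level of Arntl, and clock factors drive many liver enzymes of heme, NAD and glycogen metabolism. After a shift of the light cycle the brain clock resets faster than that of the liver, so livers sampled under repeated shifts can differ from controls in the phase of their clock, in its strength, or in both.

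The 8 livers held from 46784277 to 49771246 counts, within the range of all 26 (45364557 to 50242019). Cd79a stood at 105, 66.1, 45.6 and 26.2 CPM in 12:12 females 6 and 7 and 12:12 males 3 and 5, and at 14.5, 62.7, 31.4 and 144 CPM in jet lag females 2, 5 and 6 and jet lag male 8. All values of the 8 below keep this order. The lowest of the 8 was 14.5 CPM and the highest of the other 18 was 2.95 CPM, so no liver lay near the limit. Jet lag livers were at 63.2 ± 57.6 against 60.8 ± 33.8 CPM of 12:12 livers (mean ± SD, n = 4 each), so the pooled lighting groups had similar means. Within each sex they did not overlap. Both 12:12 females were above every jet lag female, and both 12:12 males were below jet lag male 8. The Cd79a level was therefore not balanced between the lighting groups once sex was taken into account. The following levels of B-lineage and other immune genes describe livers chosen for such a gene and were not tested between the 8 and the 18.

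B-lineage transcripts were high as a group. Of 17 B-lineage genes other than Cd79a, 11 were higher in all 8 livers than in any of the 18, and so were 21 of 24 proliferation genes and 3.94% of the 16892 genes tested over all 26 livers. The heavy chain gene Ighm was at 202, 271, 187 and 51.0 CPM in the 12:12 livers and 55.8, 123, 122 and 584 CPM in the jet lag livers, and at 8.42 to 25.4 CPM in the 18. Myc was at 145, 150.5, 112 and 47.8 CPM in the 12:12 livers and 19.0, 69.6, 86.4 and 293 CPM in the jet lag livers, against 2.68 to 22.4 CPM in the 18. Mki67, which encodes the proliferation antigen Ki-67, was at 219, 181, 119.8 and 53.9 CPM in the 12:12 livers and 20.2, 119, 79.3 and 304 CPM in the jet lag livers, against 3.23 to 9.52 CPM in the 18. In each of these genes jet lag male 8 was highest and jet lag female 2 lowest or close to lowest, so a jet lag liver stood at either end of the range. Of 20 genes of T and NK cells, 0 were higher in all 8 than in any of the 18. Their summed level was 10.8 to 36.3 CPM in the 8 and 5.49 to 17.7 CPM in the 18, and 4 of the 8 (12:12 females 6 and 7, jet lag female 5 and jet lag male 8) exceeded all of the 18. The T-cell receptor component Cd3e was at 0.256, 0.383, 0.0207 and 0.0812 CPM and 0.355, 0.301, 0.528 and 0.0424 CPM in the 8, against 0.0213 to 0.637 CPM in the 18.

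The 8 livers were not alike in the kind of B-lineage cell or in the myeloid genes beside it. Genes of precursor B cells were high in 12:12 female 6, jet lag female 5 and jet lag male 8. Vpreb1, part of the surrogate light chain of pre-B cells, was at 14.0, 0.128, 0.124 and 0.162 CPM in the 12:12 livers and 0.251, 10.2, 0.0406 and 2.71 CPM in the jet lag livers. Il7r, the interleukin 7 receptor of precursor cells, was at 14.4, 0.554, 1.59 and 0.386 CPM in the 12:12 livers and 0.272, 3.80, 0.569 and 17.6 CPM in the jet lag livers. These 3 livers also led in the neutrophil gene S100a8, at 54.8, 1.64, 8.65 and 2.52 CPM in the 12:12 livers and 3.43, 150.4, 9.47 and 36.8 CPM in the jet lag livers, against 0.397 to 2.32 CPM in the 18. Marco, a macrophage scavenger receptor, was at 119.6, 690.3, 69.2 and 145 CPM in the 12:12 livers and 49.8, 52.1, 149.8 and 444 CPM in the jet lag livers, against 3.37 to 14.1 CPM in the 18, with the peaks in 12:12 female 7 and jet lag male 8. In bulk RNA, fewer cells of a type and less RNA per cell cannot be told apart.

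**Figure D1:**
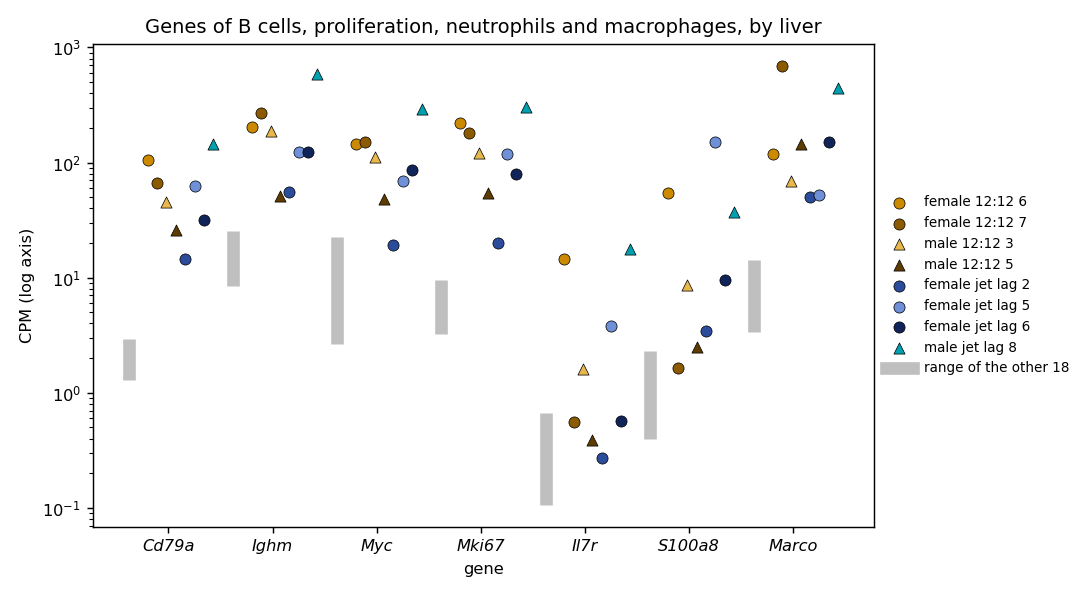
CPM on a log axis of 7 genes in each of the 8 livers (circles female, triangles male, warm colours 12:12, blue colours jet lag), with the range of the other 18 livers as a grey bar. Cd79a lies above the bar in all 8 livers because they were chosen by it, and Mki67 also lies above it in all 8. Il7r and S100a8 peak in 12:12 female 6, jet lag female 5 and jet lag male 8.

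Hepatocyte transcripts stayed abundant in all 8. Albumin (Alb) took 12.9% to 22.1% of the counts in the 8 and 10.005% to 14.4% in the 18, and transcripts of the mitochondrial genome took 5.57% to 7.23% and 5.50% to 7.10%. A single liver stood apart in its clock genes. In 12:12 male 3, Arntl was at 25.3 CPM and Clock at 31.4 CPM, the highest of the 8, and Dbp was at 3.66 CPM and Nr1d1 at 9.75 CPM, the lowest. The same liver had Saa1 and Orm2, acute phase genes, at 103 and 301 CPM, against 8.999 to 15.4 and 10.6 to 21.4 CPM in the other 12:12 livers of the 8. Values without it are given for several genes below. Livers also differed in sex-typical genes. Mup3, a urinary protein gene that male livers express strongly, was at 5510.0 CPM in 12:12 male 5 but at 151 CPM in 12:12 male 3 and 97.7 CPM in jet lag male 8, with 59.2 to 1108 CPM in the 5 females. Sex was a term in every fit unless stated.

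No gene passed the threshold of an adjusted p of 0.05 between jet lag and 12:12 lighting among the 8. The quasi-likelihood test of edgeR was run on 15856 genes, and the adjusted p was 1 for each. At an unadjusted p under 0.05 it gave 190 genes, 1.20% of those tested, with 94 higher and 96 lower under jet lag. DESeq2 and limma-voom also called 0 genes, with 282 and 211 at an unadjusted p under 0.05. The 2 lighting groups did not overlap in CPM in 140 genes (0.883%), 57 with every jet lag liver higher (0.359%) and 83 with every jet lag liver lower (0.523%). Of the 15856 genes, 8177 had a positive fold change, which is the background for the counts of signs in gene lists. All directions below are therefore differences that did not pass the threshold, given with their fold change (log2 of jet lag over 12:12 with sex in the model) and its standard error (SE). Leaving out each liver in turn left 0 genes called and from 153 to 1205 genes at an unadjusted p under 0.05. The largest of these counts came without jet lag male 8. Of 69 genes examined in this way, 32 had a fold change that moved by over 1.5 times when 1 liver was left out.

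Of the 6 genes lower under jet lag with the smallest p, 5 are given here. Lonrf1, which encodes a RING finger protein, was at 8.59, 12.4, 6.38 and 10.8 CPM in the 12:12 livers and 3.72, 2.73, 5.18 and 3.90 CPM in the jet lag livers. Every jet lag liver lay below every 12:12 liver, with a log2 fold change of -1.29 (SE 0.30, unadjusted p = 0.00231). Dclre1a, a nuclease gene of DNA crosslink repair, was at 25.7, 37.3, 21.3 and 29.2 CPM in the 12:12 livers and 13.8, 10.7, 18.1 and 14.0 CPM in the jet lag livers, again with no overlap, and differed by -1.004 (SE 0.24, unadjusted p = 0.00257). Coq10b, whose product binds coenzyme Q, was also among the 6 and is described with the clock output below. So were Gm14403 and Gm14420, predicted zinc finger genes from a family of near-identical copies among which reads can be shared, with fold changes of -1.40 (SE 0.34) and -1.25 (SE 0.31). Their values are uncertain for that reason, and Gm14420 has no position in the annotation used.

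The 6 higher genes with the smallest p were of mixed kinds. Tmem64, a transmembrane protein gene, was at 8.17, 8.88, 14.7 and 11.9 CPM in the 12:12 livers and 13.4, 17.3, 17.1 and 23.8 CPM in the jet lag livers, with a fold change of 0.92 (SE 0.19, unadjusted p = 0.000992). The groups overlapped, since 12:12 male 3 exceeded jet lag female 2. Lifr, the receptor for leukaemia inhibitory factor, was at 72.6, 118, 139 and 307 CPM in the 12:12 livers and 123, 464, 361 and 774 CPM in the jet lag livers, and differed by 1.79 (SE 0.46, unadjusted p = 0.00404). Its 12:12 livers other than male 5 and jet lag female 2 lay under the range of the 18 livers (211 to 474 CPM), while jet lag male 8 lay over it. Gm30959, a predicted gene, was at 1.41, 0.320, 0.621 and 0.426 CPM in the 12:12 livers and 4.66, 3.56, 3.13 and 2.27 CPM in the jet lag livers, with no overlap and a fold change of 2.14 (SE 0.48, unadjusted p = 0.00177). Nfasc, a cell adhesion gene, also did not overlap, at 1.18, 0.426, 0.932 and 0.548 CPM in the 12:12 livers and 1.53, 1.55, 2.13 and 3.98 CPM in the jet lag livers, with a fold change of 1.63 (SE 0.43). The imprinted zinc finger gene Peg3 and its antisense partner Peg3os had fold changes of 1.82 (SE 0.47) and 1.84 (SE 0.45), and reads of the pair cannot be told apart where the counting did not use strand. Jet lag male 8 held the highest value of both.

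In the repressor arm of the clock, 9 of 10 genes had lower fitted levels under jet lag, with a median log2 fold change of -0.61 against 0.01 over all genes tested. None passed the threshold, and 1 of the 10, Per2, was lower in every jet lag liver (background 0.523%). Per2 (chromosome 1, 91415977 to 91459351), a core repressor, was at 25.8, 48.5, 39.9 and 44.3 CPM in the 12:12 livers and 14.4, 8.88, 20.6 and 20.2 CPM in the jet lag livers, with a fold change of -1.20 (SE 0.31, unadjusted p = 0.00399). The highest jet lag liver, female 6, stood below the lowest 12:12 liver, which was also a female 6. Per1, its paralogue, was at 58.1, 85.6, 46.1 and 52.4 CPM in the 12:12 livers and 7.34, 14.1, 49.6 and 47.7 CPM in the jet lag livers. Here jet lag females 2 and 5 were far below the rest, while jet lag female 6 and male 8 lay within the 12:12 range, and the fold change was -0.99 (SE 0.56, unadjusted p = 0.111). Per3 was at 35.1, 77.8, 14.0 and 37.1 CPM in the 12:12 livers and 12.5, 7.96, 31.6 and 28.4 CPM in the jet lag livers, with a fold change of -0.97 (SE 0.55).

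Ciart, which encodes a repressor that binds BMAL1, was at 20.8, 10.5, 3.11 and 15.7 CPM in the 12:12 livers and 0.815, 0.884, 6.40 and 3.75 CPM in the jet lag livers. Jet lag females 2 and 5 were again the lowest, and 12:12 male 3 lay within the jet lag range, so that the groups overlapped at a fold change of -2.06 (SE 0.79, unadjusted p = 0.0297). Without 12:12 male 3 the fold change was -2.34. Over the livers left out it ran from -2.94 (without jet lag female 6) to -1.64 (without 12:12 female 6). Nr1d1 was the exception to the direction of the arm. It was at 33.3, 55.0, 9.75 and 36.5 CPM in the 12:12 livers and 167, 102, 98.0 and 31.0 CPM in the jet lag livers, with the 3 jet lag females above all 12:12 livers and jet lag male 8 within them, and its fold change was 1.16 (SE 0.51, unadjusted p = 0.0496). The fold changes were -0.68 for Cry1, -0.10 for Cry2, -0.10 for Nr1d2, -0.55 for Bhlhe40 and -0.10 for Bhlhe41, with unadjusted p from 0.158 to 0.873. That of Cry1 ran from -1.13 without jet lag female 2 to -0.34 without 12:12 male 3. Those of Cry2, Nr1d2 and Bhlhe41 changed sign when single livers were left out.

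In the activator arm 5 of 6 genes had positive fold changes, with a median of 0.53. Arntl was at 6.09, 3.00, 25.3 and 2.23 CPM in the 12:12 livers and 17.8, 8.04, 9.08 and 17.7 CPM in the jet lag livers, and differed by 1.05 (SE 0.74, unadjusted p = 0.189). The 12:12 livers other than male 3 lay between 2.23 and 6.09 CPM, below all 4 jet lag livers, and the fold change was 1.86 without male 3 and 0.65 without 12:12 female 7, the highest and lowest over the livers left out. Clock was at 6.31, 9.01, 31.4 and 11.1 CPM in the 12:12 livers and 21.1, 20.3, 18.4 and 17.5 CPM in the jet lag livers, a fold change of 0.89 (SE 0.50). Without male 3 it was 1.22, and over the livers left out it ran from 0.48 (without 12:12 female 6) to 1.53 (without jet lag male 8). Npas2, whose product can replace CLOCK as the partner of BMAL1, was at 0, 0.0639, 0.580 and 0 CPM in the 12:12 livers and 4.06, 0.583, 0.406 and 0.339 CPM in the jet lag livers. The floor of 3 counts in a library is at most 0.0661 CPM, so 3 of the 12:12 livers were at or under it and no fold change is given. Rora differed by 0.18 (SE 0.39) and Nfil3 by 0.17 (SE 0.86), and both changed sign when single livers were left out.

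**Figure D2:**
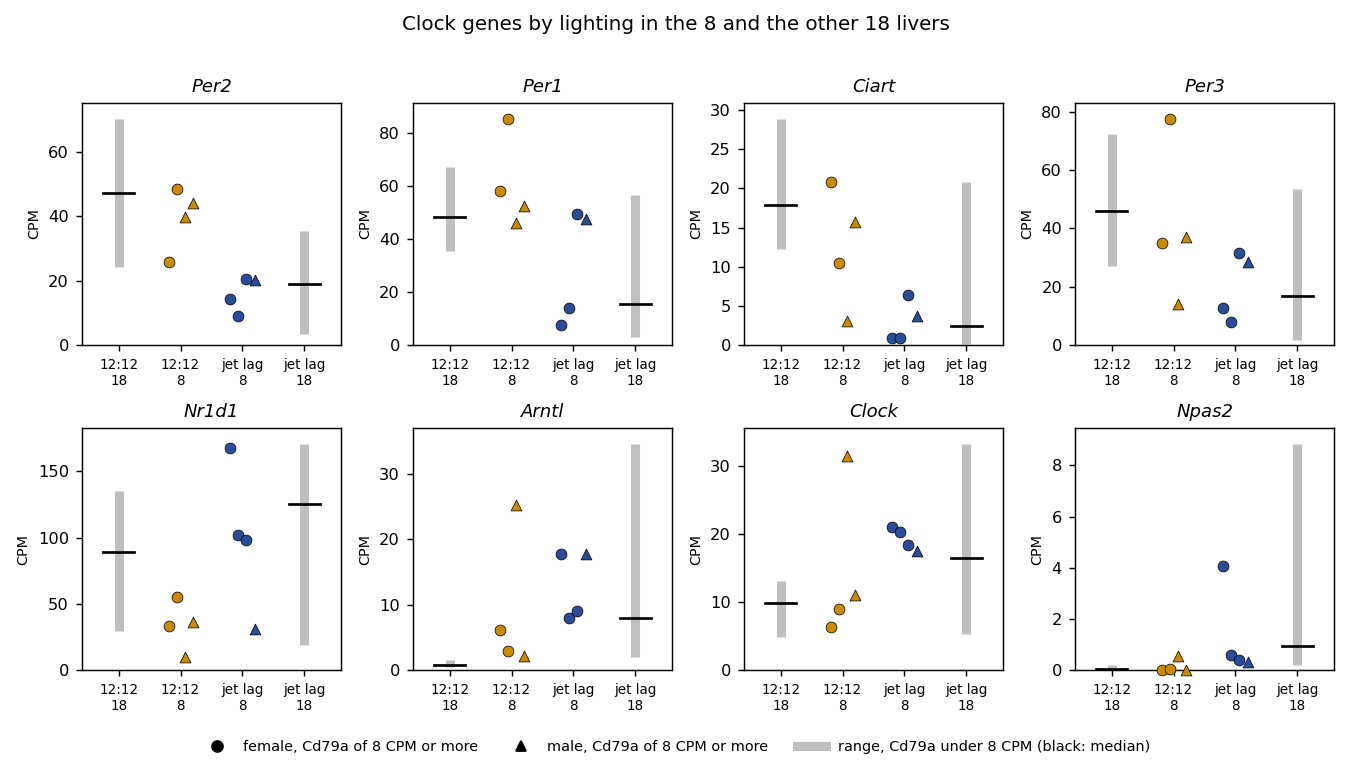
CPM of 8 clock genes in each of the 8 livers (12:12 in ochre, jet lag in blue, circles female, triangles male), with the range (grey) and median (black line) of the other 18 livers at the sides by lighting. Per2 does not overlap between the lighting groups of the 8, and 12:12 male 3 is the highest point for Arntl and Clock.

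In the 18 livers the fold changes of the 16 repressor and activator genes had the same sign as in the 8 except that of Rora, and the sizes differed most for Arntl. There Arntl was at 0.504 to 1.58 CPM under 12:12 lighting and 2.02 to 34.5 CPM under jet lag, and it rose by 3.61 (SE 0.52, adjusted p = 0.00107). In the 8, all 4 livers under 12:12 lighting lay above that 12:12 range. The difference between the 2 effects, 8 minus 18, was -2.79 (SE 0.90, unadjusted p = 0.00501), which did not pass the threshold after adjustment over all genes. Per2 differed by -1.41 (SE 0.37, adjusted p = 0.0535) in the 18, close to the value in the 8, and the difference between the effects was 0.13 (SE 0.57, unadjusted p = 0.816).

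Clock output genes of the liver leaned down as a list. Of 20 genes, 14 had negative fold changes with a median of -0.63. At an unadjusted p under 0.05, 7 were lower and 1 higher (background 1.20% in either direction), and 4 were lower and 1 higher in every jet lag liver (background 0.523% and 0.359%). Many of the 20 were put on the list because they had differed over all 26 livers, the 8 among them, so these counts are not independent evidence. Coq10b (chromosome 1, 55052770 to 55072702) was at 19.3, 19.4, 7.10 and 21.9 CPM in the 12:12 livers and 4.91, 6.25, 6.99 and 6.63 CPM in the jet lag livers. The 4 jet lag livers lay within 4.91 to 6.99 CPM, 12:12 male 3 stood just above them, and the fold change was -1.45 (SE 0.34, unadjusted p = 0.00245). Without male 3 it was -1.64, the most negative value over the livers left out, and it stayed at or below -1.17 in each case.

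The promoter of Coq10b, like that of the repressor gene Ciart, holds clock-type motifs, and both are printed as examples. Their transcripts were lowest in jet lag females 2 and 5. So were those of Usp2 and Nampt, whose promoter entries held neither motif. Whether the motifs go with this pattern was not tested. The sequences are the 250 bases before the start site, 5′ to 3′ on the gene's strand, from RefSeq (GRCm38.p6). Capitals mark the E-box CACGTG, which reads alike on both strands, and the D-box TTATGTAA, searched on both strands and present here as its reverse complement. The E-box is the site of BMAL1 with CLOCK or NPAS2, and the D-box that of DBP, TEF, HLF and the repressor NFIL3. The Coq10b promoter lies on the plus strand at chr1:55052520-55052769, and the Ciart promoter on the minus strand at chr3:95882229-95882478.
Coq10b: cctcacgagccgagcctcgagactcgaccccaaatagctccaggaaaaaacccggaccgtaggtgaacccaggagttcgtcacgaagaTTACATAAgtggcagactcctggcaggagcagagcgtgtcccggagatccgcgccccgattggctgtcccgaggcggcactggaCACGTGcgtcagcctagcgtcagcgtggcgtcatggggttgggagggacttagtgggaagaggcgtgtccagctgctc
Ciart: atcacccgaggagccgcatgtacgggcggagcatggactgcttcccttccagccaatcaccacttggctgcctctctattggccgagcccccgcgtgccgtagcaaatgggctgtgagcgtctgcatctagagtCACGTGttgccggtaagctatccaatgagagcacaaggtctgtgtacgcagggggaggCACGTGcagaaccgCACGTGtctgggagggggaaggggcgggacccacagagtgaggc
Counted from 1 at the 5′ end, the Coq10b E-box starts at base 173 and its D-box at base 89, and the E-boxes of Ciart start at bases 135, 193 and 207. Of 36 clock repressor, activator and output genes, 29 had at least 1 entry in the promoter table, 40 entries in all. An E-box was present in 9 of the 40 entries and a D-box in 3, against 6.02% and 0.819% of all 32851 promoters of that length. A match is a description of the letters and not a measured site.

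Enzymes of NAD and heme synthesis were among the genes without overlap. Nampt and Alas1 stood on the output list, so the limit given for that list holds for them, and Nmrk1 did not. Nampt (chromosome 12, 32820335 to 32853369), the rate-limiting enzyme of NAD salvage, was at 82.8, 86.2, 96.7 and 108 CPM in the 12:12 livers and 42.4, 53.5, 67.8 and 60.8 CPM in the jet lag livers. The fold change was -0.64 (SE 0.21, unadjusted p = 0.0161). Nmrk1, which makes nicotinamide mononucleotide from nicotinamide riboside, was at 15.5, 19.5, 12.7 and 15.8 CPM in the 12:12 livers and 7.73, 7.74, 10.6 and 9.80 CPM in the jet lag livers, with a fold change of -0.81 (SE 0.20, unadjusted p = 0.00344). Of the 14 genes of NAD synthesis and use, 13 had negative fold changes, with a median of -0.25, and these 2 were the ones whose groups did not overlap (background 0.523% lower). In the 18 livers the median of that list was -0.06, with 6 of the 14 genes positive. Alas1 (chromosome 9, 106233455 to 106247954), the rate-limiting enzyme of heme synthesis, was at 517, 775, 640.0 and 1599.5 CPM in the 12:12 livers and 237, 394, 350.2 and 308 CPM in the jet lag livers. The highest jet lag liver, at 394 CPM, lay below the lowest 12:12 liver, at 517 CPM, with a fold change of -1.24 (SE 0.42, unadjusted p = 0.0164).

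Heme-dependent and related xenobiotic genes shared the direction with overlap. Por, the electron donor of cytochromes P450, differed by -0.67 (SE 0.31) and Cyp2a5, a P450 of coumarin metabolism, by -1.06 (SE 0.49). Of 24 genes of xenobiotic and heme metabolism 21 had negative fold changes, with a median of -0.13, and Alas1 was the one whose groups did not overlap (background 0.523% lower). In the 18 livers the median of that list was -0.06, with 9 of the 24 genes positive. Among further output genes, the deubiquitinase gene Usp2 was at 32.6, 20.5, 12.2 and 29.5 CPM in the 12:12 livers and 3.09, 3.40, 15.6 and 10.8 CPM in the jet lag livers, with a fold change of -1.49 (SE 0.58). Wee1, a kinase gene that restrains CDK1, differed by -1.13 (SE 0.42), and Ccrn4l (nocturnin) by -1.52 (SE 0.55). In the D-box factors the fold changes were -0.64 (SE 0.68) for Dbp, -0.51 (SE 0.38) for Tef and -0.46 (SE 0.38) for Hlf, with overlap in each. Gys2, liver glycogen synthase, was at 122, 300.0, 209.9 and 452 CPM in the 12:12 livers and 102, 119.8, 136 and 239.9 CPM in the jet lag livers, a fold change of -0.65 (SE 0.35).

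Higher levels under jet lag without overlap were fewer. Tars, a threonyl-tRNA synthetase gene, was at 97.2, 79.3, 113 and 82.2 CPM in the 12:12 livers and 165, 128, 134 and 137 CPM in the jet lag livers. Its fold change was 0.65 (SE 0.23, unadjusted p = 0.0187), close to the 0.66 of the 18. Chac1, a glutathione-degrading enzyme gene of the ER stress response, was at 0.641, 0.937, 0.435 and 1.14 CPM in the 12:12 livers and 1.38, 2.37, 1.48 and 2.50 CPM in the jet lag livers, a fold change of 1.36 (SE 0.40, unadjusted p = 0.00822). Of the 14 ER stress genes 11 had positive fold changes with a median of 0.34, and Chac1 was the one without overlap (background 0.359% higher). In the 18 livers the median of that list was -0.12.

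Acute phase genes, which hepatocytes raise on inflammatory signals, had the highest list median among the hepatocyte pathways examined. Of 18 genes 16 had positive fold changes with a median of 0.59, none past the threshold, 3 at an unadjusted p under 0.05, and 2 with every jet lag liver higher (background 0.359%). Fgg (chromosome 3, 83007724 to 83015056), the fibrinogen gamma chain, was at 2861, 3467, 4240.3 and 2735 CPM in the 12:12 livers and 5876, 5459.5, 5822 and 4539.5 CPM in the jet lag livers, with a fold change of 0.73 (SE 0.26, unadjusted p = 0.0231). Fgb, the beta chain, was at 4100.3, 5335, 6593 and 4281 CPM in the 12:12 livers and 8623, 7641, 10344 and 7009 CPM in the jet lag livers, with a fold change of 0.77 (SE 0.29, unadjusted p = 0.0267). In both genes 12:12 male 3 was the highest 12:12 liver, and without it the fold changes were 0.87 and 0.91. The lowest values over the livers left out came without 12:12 female 6, at 0.57 for each gene. Cp, the copper carrier ceruloplasmin, was at 1138, 1019, 2255 and 1079 CPM in the 12:12 livers and 1568, 1669.7, 2225 and 3783 CPM in the jet lag livers, and only 12:12 male 3 overlapped the jet lag livers. Its fold change was 0.94 (SE 0.29). Over the livers left out it ran from 0.81 (without 12:12 male 5) to 1.11 (without 12:12 male 3).

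The acute phase sum ran from 29203 to 35087 CPM in the jet lag livers, and stood at 32936 CPM in 12:12 male 3 and 18364 to 21340 CPM in the other 12:12 livers. In the 18, 0 of 18 acute phase genes were called by edgeR and the median was -0.13. The effects differed between the 8 and the 18 by 0.66 (SE 0.22, unadjusted p = 0.00655) for Fgb and 0.78 (SE 0.26, unadjusted p = 0.00514) for Cp, which did not pass the threshold. Neutrophil genes leaned the same way. All 13 tested of the 14 neutrophil genes had positive fold changes, with a median of 1.15 and none at an unadjusted p under 0.05. Their summed level was 117 to 562 CPM under jet lag and 25.9 to 309 CPM under 12:12 lighting. Lcn2, which had the highest mean level of the neutrophil genes in the 8, stood on both lists. The neutrophil sum is therefore not separate from the acute phase list. B-lineage genes did not lean this way, with 15 of 17 tested negative and a median of -0.23. Whether the neutrophil level has a part in the acute phase difference was not tested.

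**Figure D3:**
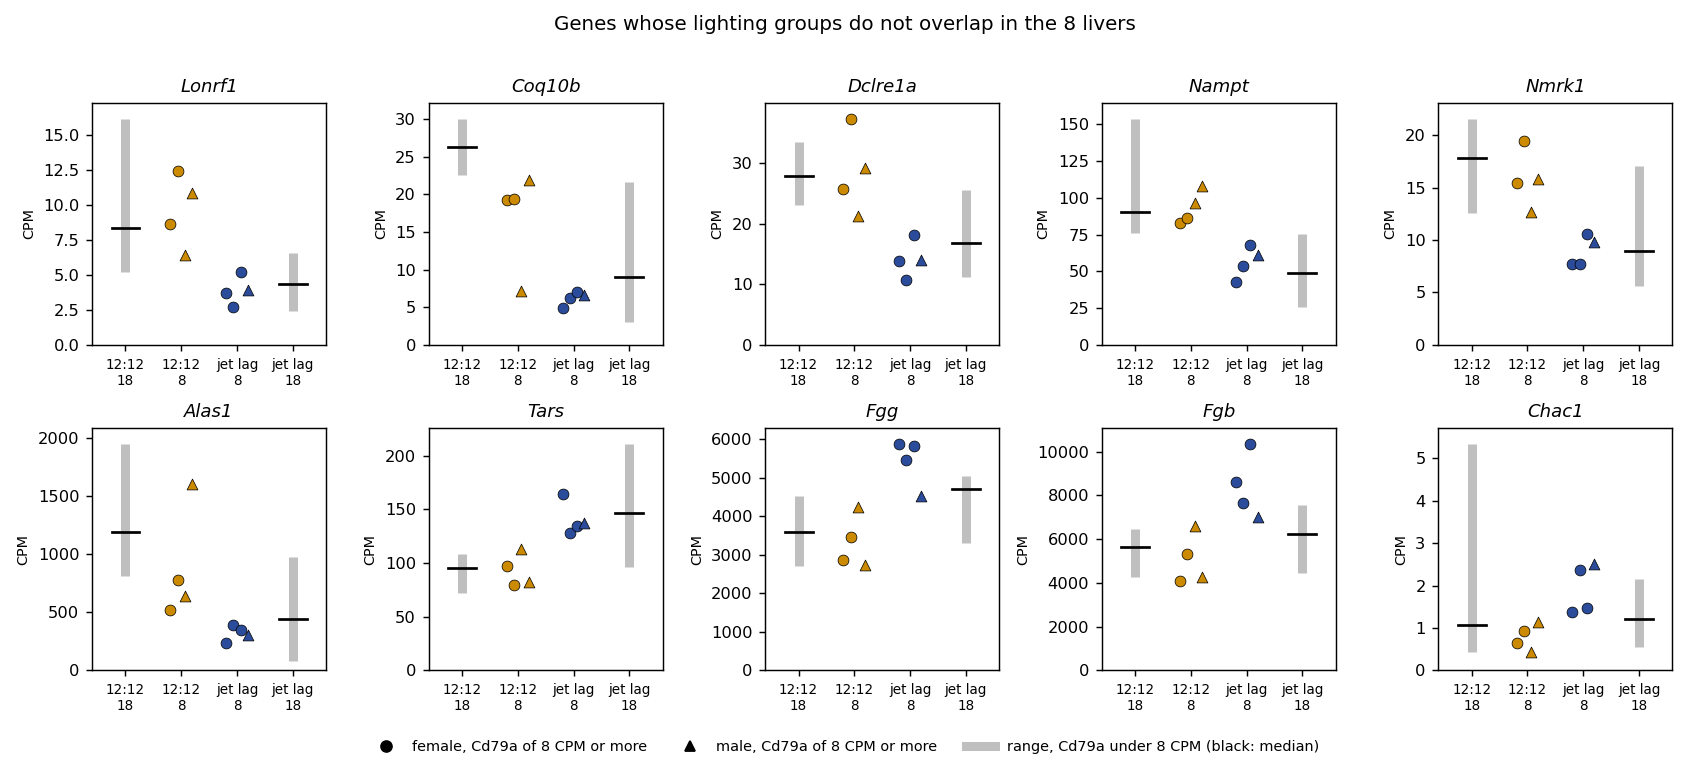
CPM of 10 genes whose lighting groups did not overlap in the 8 livers (12:12 in ochre, jet lag in blue, circles female, triangles male), with range (grey) and median (black line) of the other 18 by lighting. The 6 genes from Lonrf1 to Alas1 lie lower in all 4 jet lag livers, and Tars, Fgg, Fgb and Chac1 lie higher.

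The remaining lists of metabolism and growth had smaller medians than the acute phase genes. Cholesterol synthesis had 16 of 17 genes positive, with a median of 0.29, and no gene without overlap. In the 18 livers the median of that list was -0.02, with 7 of the 17 genes positive. The rate-setting enzyme genes of cholesterol synthesis, Hmgcs1 and Sqle, differed by 1.03 (SE 0.41) and 0.77 (SE 0.29) in the 8. Hmgcs1 was at 78.2, 168, 136 and 198 CPM in the 12:12 livers and 247, 427, 161 and 263 CPM in the jet lag livers, with jet lag female 6 inside the 12:12 range, and all 8 livers were below the median of the 18, 447 CPM. The medians were -0.01 for 18 glucose and glycogen genes, 0.00 for 14 genes of bile acid synthesis and transport and 0.18 for 15 genes of fatty acid synthesis. They were -0.04 for 20 genes of MYC and ribosome biogenesis and -0.00 for 24 proliferation genes, of which 12 were positive.

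The genes that jet lag changed in the 18 livers were read in the 8, which share no animal with them. In the 18, edgeR called 379 of 15329 genes (2.47%), 225 higher (1.47%) and 154 lower (1%), and 377 of them could be tested in the 8. Without jet lag female 3 the number of calls in the 18 was 177. Of the 377, 323 (85.7%) had the same sign in the 8, against 8005 of 15045 (53.2%) of all genes tested in both. The genes higher in the 18 had a median fold change of 0.28 in the 8 and 0.72 in the 18, and the lower genes -0.32 and -0.63. The fold change was smaller in size in the 8 for 335 of the 377. The 377 were chosen on their values in the 18, so that count is a description. Genes are not independent replicates, so no p is given for these counts.

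In 19 of the 377 genes (5.04%) the lighting groups of the 8 did not overlap, against 0.891% of all genes tested in both. In all 19 the direction was that of the 18, as it was in 104 of the 134 genes without overlap among all genes tested in both. The 3 higher were Tars, Gm30959 and Med12l, and 16 were lower. The lower ones included, besides Lonrf1, Coq10b, Dclre1a, Nampt, Nmrk1 and Alas1, the pyridoxal kinase gene Pdxk with a fold change of -0.60 (SE 0.26) and Riok2, a kinase gene of ribosome maturation, with -0.36 (SE 0.15). Riok2 was at 33.9, 34.0, 31.6 and 35.9 CPM in the 12:12 livers and 23.1, 26.9, 24.8 and 27.6 CPM in the jet lag livers, so its groups were close together but did not overlap. At an unadjusted p under 0.05 in the 8 there were 28 of the 377 (7.43%), against 1.21% of all genes.

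Of the 5 higher and 5 lower genes with the smallest p in the 18, all overlapped between the lighting groups of the 8, and all but Ccne1 had the same sign there. Cldn1, a tight junction gene, rose by 1.51 (SE 0.17, adjusted p = 0.000265) in the 18 and was at 7.16, 12.5, 24.4 and 6.42 CPM in the 12:12 livers and 32.7, 21.7, 20.2 and 9.61 CPM in the jet lag livers in the 8. The fold changes in the 8 were 0.88 (SE 0.43) for Eps8l2, an actin regulator gene, 0.64 (SE 0.56) for the cGMP phosphodiesterase gene Pde9a and 0.74 (SE 0.40) for the ubiquitin ligase gene Nedd4l, against 1.22, 1.20 and 1.08 in the 18. B230206H07Rik overlaps Eps8l2 in the annotation and gave 0.79 (SE 0.43) in the 8. These values depended on single livers. That of Cldn1, 0.75 (SE 0.63) in the 8, ran from 0.21 without 12:12 female 6 to 1.49 without jet lag male 8. Those of Eps8l2, Pde9a and Nedd4l were lowest without 12:12 female 7, at 0.46, 0.10 and 0.56, and reached 1.49, 1.31 and 1.11 without jet lag male 8 for the former pair and without 12:12 male 3 for Nedd4l. Among the lower genes, Gys2 gave -0.65 in the 8 and -1.16 in the 18, the adenylate kinase gene Ak4 -0.62 and -0.87, Efhd2 -0.32 and -0.80, and Pcsk4 -0.65 and -1.01. Ccne1, cyclin E1, gave -1.63 (SE 0.25, adjusted p = 0.00107) in the 18 and 0.04 in the 8, where its level of 10.9, 9.78, 2.92 and 3.82 CPM and 1.67, 8.02, 4.59 and 13.1 CPM exceeded the range of the 18 (0.249 to 2.77 CPM) in 7 livers.

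**Figure D4:**
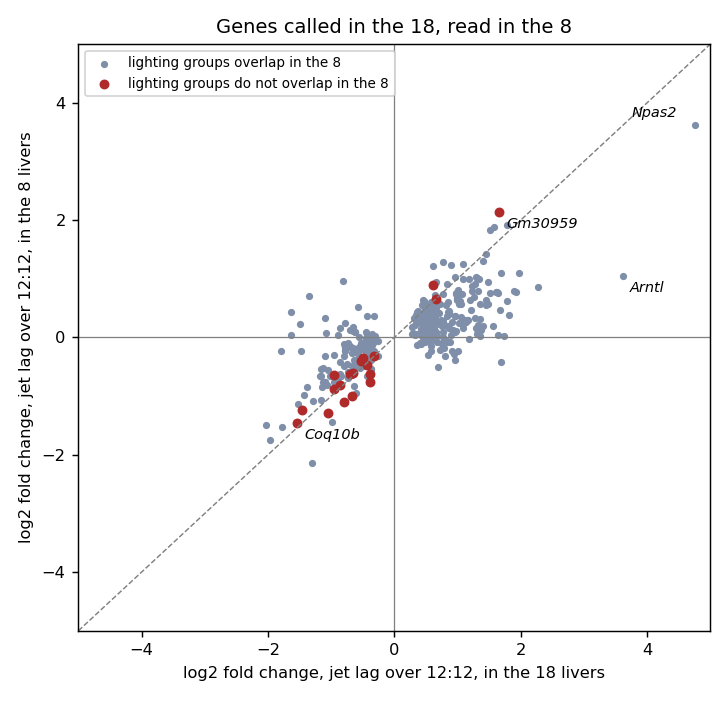
Log2 fold change (jet lag over 12:12) in the 18 livers (horizontal) against that in the 8 livers (vertical) for the 377 genes called in the 18 and tested in the 8. Red points are the 19 genes whose lighting groups did not overlap in the 8, and the dashed line marks equal fold changes.

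A direct test of the difference between the 8 and the 18 called no gene. The interaction of lighting with the class of liver was tested over all 26 libraries, where edgeR called 0 of 16892 genes and gave 391 (2.31%) at an unadjusted p under 0.05. Limma-voom called 0, with 429 unadjusted, and DESeq2 called 1, with 440. That gene was Crybb3, a crystallin gene, at 0.171, 0.170, 0.145 and 0.345 CPM in the 12:12 livers and 0.669, 4.94, 0.264 and 0.741 CPM in the jet lag livers, where jet lag female 5 alone held the high value, and its interaction in edgeR was 4.23 (SE 0.93, unadjusted p = 0.000118). The next smallest p among genes with a larger effect in the 8 belonged to Lifr, at 1.72 (SE 0.43, unadjusted p = 0.000514), with a fold change of -0.23 in the 18. Tifa, an adaptor of NF-kB signalling, did not overlap in the 8, at 5.09, 5.41, 4.76 and 3.76 CPM in the 12:12 livers and 6.92, 6.39, 6.26 and 7.79 CPM in the jet lag livers, and gave 0.55 there and -0.38 in the 18. Derl3, a gene of ER-associated degradation, and Slc6a9, a glycine transporter gene, gave 1.24 and 0.51 in the 8, and -1.21 and -0.57 in the 18. The value of Derl3 in the 8 was 0.52 without jet lag male 8, and that of Slc6a9 was 0.08 without 12:12 female 6.

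Among genes with a smaller or opposite effect in the 8, Acmsd, an enzyme that diverts tryptophan away from NAD synthesis, was at 85.2, 6.37, 19.8 and 8.12 CPM in the 12:12 livers and 10.5, 3.27, 11.5 and 5.51 CPM in the jet lag livers. Its difference between the effects was -2.43 (SE 0.63, unadjusted p = 0.00067), and 12:12 female 6 held its high value. The fold change in the 8 was -2.02, and -0.41 without that liver. Tubb2b, a beta tubulin gene, rose by 1.69 (SE 0.28, adjusted p = 0.00248) in the 18 and was at 27.9, 18.6, 13.7 and 3.55 CPM in the 12:12 livers and 24.5, 9.22, 5.95 and 9.97 CPM in the jet lag livers in the 8. Its fold change there was -0.41 (SE 0.53), from -0.84 without jet lag female 2 to -0.14 without 12:12 male 3. Myh11, smooth muscle myosin, and the zinc finger gene Zfp105 gave -0.79 and -0.60 in the 8, and 0.28 and 0.43 in the 18. Dmbt1 was the fifth gene of this direction by p, but it reached 189.9 CPM in 1 jet lag liver of the 18 with a median of 0, and no fold change is given.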

How the data were processed

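Liver RNA of 26 Eu-MYC mice was measured by stranded mRNA sequencing, per the labels. The authors deposited a table of expected counts per gene name and library. In it 45.82% of cells held 0.015, which was set to 0, and counts were rounded (1.44% of cells were not whole, tolerance 1e-06) and summed over lines that shared a name. STAR, DESeq2 and mm10 are named in the submitters' processing notes. For the counting tool, its strand setting and the annotation, nothing is stated: not given in the sources used here.

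Lighting was tested with sex as a covariate by edgeR 4.0.16 (TMM, filterByExpr by lighting with a count minimum of 10, quasi-likelihood F test with robust estimation), in the 8 libraries alone, in the other 18 alone, and as an interaction over all 26. P-values were adjusted by Benjamini and Hochberg over all genes tested, with a threshold of 0.05, and edgeR gave all p-values of genes where no other tool is named. The SE is the fold change divided by the square root of F. The code was tested on simulated counts. R 4.3.3, limma 3.58.1 and DESeq2 1.42.0 gave the alternatives. P-values set a difference against the spread between these mice that the model leaves unexplained. A count of 0 allows up to 3 counts, at most 0.0661 CPM, which takes in only the error of counting.

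No 2 of the 8 libraries of 1 sex and lighting were copies of each other, with a chi-square per degree of freedom of at least 132. The members and the 35 gene lists (518 of 521 entries found, 18 under another name) were chosen with earlier results of these data known. Named genes were the 6 per direction with the smallest p and a mean of at least 1 CPM, all clock repressor and activator genes, Cd79a and Myc, up to 4 genes per list by p (for cell types also the 3 highest), and 5 per direction for the difference and for the 18. Of these, 1 gene is not reported here, but it stays in the fits and the counts of its list. Other genes, those without overlap among them, were named after their values were seen. Positions are from RefSeq GRCm38.p6.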

Additional observations from a re-analysis of the deposited data

Results flagged for a closer look

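In 168 groups of 4 livers (84 genes, each under 12:12 lighting and under jet lag), 21 single values stood far from the other 3 of their group. The rule flags about 1 group in 20 by chance only for normally distributed values of genes chosen beforehand. Some of the genes, among them Vpreb1, Igll1, Il7r, Saa1 and Orm2, were named after their values were seen. The number flagged is therefore a description and is not set against chance. Of the 21 values, 7 were in 12:12 male 3, all high: Arntl at 25.3 CPM, Npas2 at 0.580 CPM, Cp at 2255 CPM, Saa1 at 103 CPM, Orm2 at 301 CPM, Med12l at 3.77 CPM and Dmbt1 at 4.55 CPM. In 12:12 female 6, Vpreb1 at 14.0 CPM, Igll1 at 23.6 CPM, Il7r at 14.4 CPM, S100a8 at 54.8 CPM and Acmsd at 85.2 CPM were high and Rora at 5.41 CPM was low. The high values of 12:12 male 5 were Mup3 at 5510.0 CPM, Slco1a1 at 439 CPM and Crybb3 at 0.345 CPM. Marco was high in 12:12 female 7 at 690.3 CPM. Among jet lag livers, Npas2 at 4.06 CPM and Saa1 at 147 CPM were high in female 2, Crybb3 at 4.94 CPM in female 5 and Ighm at 584 CPM in male 8. The test of a difference in the lighting effect between the 8 and the 18 called 0 genes in edgeR, with 391 at an unadjusted p under 0.05.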

How the results depend on the processing

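The count of 0 genes called among the 8 held in all 19 alternatives, each library left out included (lowest 0, highest 0), as did that of the interaction (0 to 0 over the libraries left out) except that DESeq2 called 1. In the 18, the 379 calls became 702 with DESeq2 and 205 without the sex term, 46 with sex and number as a replicate block, and ran from 177 (without jet lag female 3) to 489 over the libraries left out. No paired analysis was possible because, within the 8, the lighting groups share only 1 number within a sex, female 6. Over the 10 same-number pairs of all 26 the correlation of deviations ran from -0.38 to 0.60, with 6 over 0.1 and 1 matching its own number best. That pair was female 6, at 0.60. So few pairs cannot show whether a number marks mice that were kept or sampled together. The block left the interaction at 0 calls.

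The share of the 377 genes with the same sign in the 8, 85.7%, was 89.4% without the sex term, 89.4% with all 26 libraries in the fit, 80.6% with Cd79a as a covariate and 73.7% at a Cd79a limit of 16 CPM, which drops jet lag female 2. It ran from 73.7% to 88.9% over the libraries left out. These fits were read for the share after the data were seen.

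Of 1311 fold changes of 69 genes in the 8 under the alternatives, 1281 kept their sign and 0 passed the threshold. These counts include the Cd79a limit of 4 CPM, under which no value could change, and the other repeated fits. Nfil3 turned to -0.18 with limma-voom, -0.30 with Cd79a as a covariate and -0.57 at the limit of 16 CPM. Ccne1 turned to -0.18 with limma-voom, -0.98 in females only and -0.035 with the covariate, Bhlhe41 to 0.25 at the limit of 16 CPM, and in females only Cry2 turned to 0.053, Nr1d2 to 0.057 and Hlf to 0.082. Over the libraries left out the fold change ran from -0.33 to 0.088 for Cry2, -0.33 to 0.20 for Nr1d2, -1.06 to 0.25 for Bhlhe41, -0.28 to 0.59 for Rora, -0.57 to 1.13 for Nfil3, -0.98 to 0.43 for Ccne1, -0.81 to 0.080 for Hlf and -0.94 to 0.086 for Dbp. With 4 livers a group and 5 residual degrees of freedom, large differences could also be missed among the 8. Fold changes of 2.14 for Gm30959 and -2.06 for Ciart did not pass the threshold. In edgeR 1.20% of genes had an unadjusted p under 0.05, fewer than that limit gives when no gene differs. The 0 calls therefore do not show that lighting had no effect.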
